A study of Mus musculus with 9 samples.

Results

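Liver RNA of mice carrying a knock-in (KI) that mutates the Tudor domain of SND1 was compared with liver RNA of wild-type (WT) mice, 3 libraries in each group, which is 6 of the 9 libraries of the study. The other 3 libraries came from mice without SND1 (KO). All animals were males on the FVB background, taken at 60 days of age, housed on normal chow under a 12-hour light cycle and, per the labels, sampled together. The labels name the genotypes as WT, KO and KI only, and the mutated residues, the founder animals and the way the KO was made are not given in the sources used here. The labels give the cell type as hepatocyte but the tissue as liver, and the RNA came from whole tissue. The KO libraries entered the fit to estimate the spread, for a direct test of KI against KO and for the KO minus WT values given beside some lists. They also counted in the mean that set which genes were tested. Libraries are named by group and by the number in their title, such as KI_2.

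SND1 is found in cytoplasm and nucleus, and it joins several nuclease-like folds to a single Tudor domain. Such a domain holds an aromatic pocket that binds methylated arginine, so that the protein can recognise partners, such as spliceosomal Sm proteins, that arginine methyltransferases have marked. SND1 is known as a transcriptional coactivator and as a factor in RNA splicing, stability and silencing, and it is expressed at high levels in liver.

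Each value given here is a normalized count: the reads of a gene after the authors' division by a library size factor. The mean over the 9 libraries was at least 10 in 15238 of 19944 genes, and these were tested with limma on log2(normalized count + 1). Log2 fold changes are on that scale, which understates the change of low genes, and are given with their standard error. A gene is said to have risen or fallen only where its p adjusted by Benjamini and Hochberg's method over all genes tested was under 0.05. The p-values measure the spread between these libraries only, because the labels do not say whether the mice shared litters or cages.

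The libraries held between 59678412 and 66384374 recovered reads. In 3 of them, transcripts of the exocrine pancreas were found. A list of 28 exocrine pancreas markers took 0.00527% and 0.00443% of the reads in WT_1 and WT_2 and 1.40% in WT_3, and it took 0.585%, 0.00517% and 6.77% in KI_1, KI_2 and KI_3. No marker of this list was at 0 across the WT and KI libraries, and its share was at most 0.00448% in KO. Markers of hepatocytes were high in every library, with a list of 20 taking 9.0% to 11.3% of the reads in WT and 6.15% to 9.69% in KI. Mean log2 levels of the stellate, endothelial, cholangiocyte and macrophage marker lists were above the WT mean in KI_1 and KI_3 and below it in KI_2. Other marker lists did not share this: those of neutrophils and monocytes, lymphocytes and erythroid cells were slightly above the WT mean in KI_2. In such bulk RNA, fewer cells of a type cannot be told apart from less RNA per cell. Values without WT_3, KI_1 and KI_3, which leave KI_2 against WT_1 and WT_2, are given beside each log2 fold change or list median below whose direction they turn or that they move by more than 1.5 times, and beside those the results turn on. The part of the pancreatic transcripts in any result was not tested beyond these values and a fit with a pancreas covariate. That covariate was the mean log2(normalized count + 1) of the tested pancreas markers in each library, not their share of reads.

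Transcripts of Snd1 itself were present in the KI at a level that overlapped WT. Its normalized count was 6951, 8446 and 6512 in WT and 5373, 7941 and 5595 in KI, against a mean of 334 in KO. The difference between KI and WT was -0.23 ± 0.23 on the log2 scale (adjusted p = 0.745), and it was 0.05 without the 3 libraries. The table holds 1 value per gene, so it cannot show whether the transcripts carry the mutation.

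Against WT, 4 of the 15238 genes passed the test in KI, which is 0.0263% of them. Hsph1 was the 1 gene that rose (0.00656% of genes tested), and Cyp2c39, Gm4366 and Gm11437 were the 3 that fell (0.0197%). Hsph1 encodes HSP110, a cytosolic chaperone that acts as a nucleotide exchange factor for HSP70. Cyp2c39 encodes a cytochrome P450 of the liver that hydroxylates retinoic acid. Gm4366 is annotated as a processed pseudogene and Gm11437 as a protein-coding gene without a given name.

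Hsph1 (ENSMUSG00000029657) is annotated on the reverse strand of chromosome 5 of GRCm38, from 149614287 to 149636376. Its normalized count was 3597, 3909 and 3986 in WT and 7848, 6359 and 7003 in KI. Every KI library lay above every WT library, including KI_2, which had hardly any pancreatic transcripts. The mean was 3831 ± 206 in WT and 7070 ± 747 in KI (SD, n = 3), 1.85-fold higher, with a log2 fold change of 0.88 ± 0.11 (limma adjusted p = 0.0398). Without the 3 libraries the log2 fold change was 0.76. In KO the mean was 2600, and the difference between KI and KO was 1.44 ± 0.11 (limma adjusted p = 0.000147). Here and below, genes were named for their values in KI libraries that the KI against KO test uses again. Its p-values are therefore not independent of that choice.

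Cyp2c39 (ENSMUSG00000025003) is annotated on the forward strand of chromosome 19, from 39510862 to 39568529. Its normalized count was 9850, 8374 and 7119 in WT and 2472, 2889 and 2320 in KI. The groups were far apart, and the 3 KI libraries lay close together. The gene was 3.3-fold lower in KI, a log2 fold change of -1.72 ± 0.21 (limma adjusted p = 0.0398), and -1.65 without the 3 libraries. The KO mean was 1852, and KI and KO were not distinguished (0.51 ± 0.21, adjusted p = 0.172). Of the 50-base words in its annotated transcripts, 12.0% also occur in other genes and 11% in Cyp2c38, so a part of its reads could belong to that neighbour.

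Gm4366 (ENSMUSG00000107383) is annotated on the reverse strand of chromosome 7, from 116824510 to 116825851. It was at 595, 704 and 635 in WT and at 185, 194 and 154 in KI, 3.64-fold lower, with a log2 fold change of -1.86 ± 0.19 (limma adjusted p = 0.0208) and -1.74 without the 3 libraries. The KO mean of 161 was in the range of the KI libraries, and KI minus KO was 0.15 (adjusted p = 0.679). It shares 82.0% of its 50-base words with Eef1g, an elongation factor subunit, so its reads are hard to assign. The mean of Eef1g itself was 9508 ± 329 in WT and 10888 ± 200 in KI (adjusted p = 0.573).

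Gm11437 (ENSMUSG00000051452) is annotated on the reverse strand of chromosome 11, from 84148351 to 84167476, and none of its 50-base words occur in another gene. It was at 396, 330 and 279 in WT and at 78.4, 116 and 81.8 in KI, 3.64-fold lower (log2 fold change -1.86 ± 0.23, limma adjusted p = 0.0398; -1.63 without the 3 libraries). KO differed from KI here: its mean was 256, and KI minus KO was -1.47 ± 0.23 (limma adjusted p = 0.00536).

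**Figure D1:**
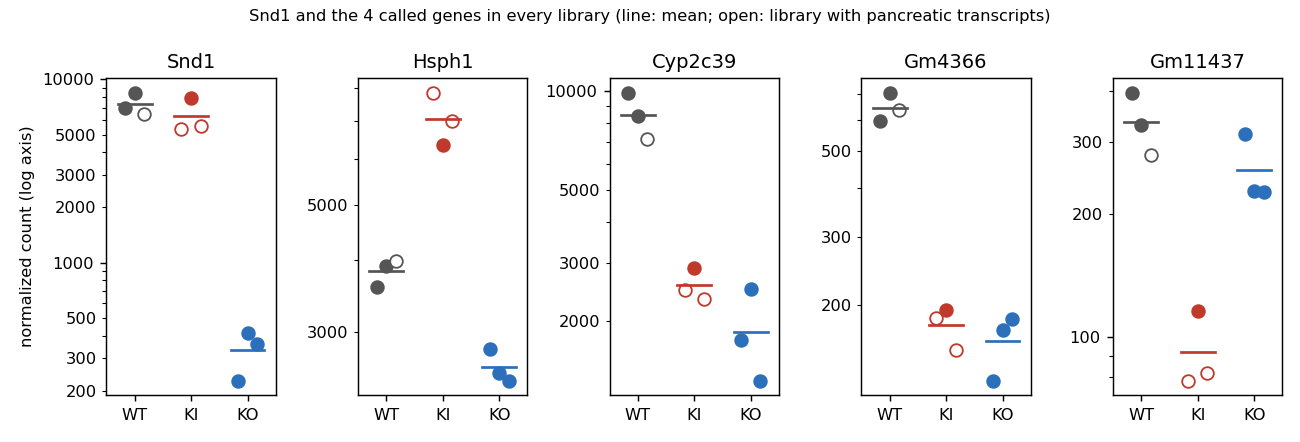
Normalized counts (log axis) of Snd1 and of the 4 genes that passed the test, by library in WT, KI and KO, with a line at each mean and open circles for WT_3, KI_1 and KI_3, which held pancreatic transcripts. KI and WT do not overlap in any of the 4 genes, and Hsph1 runs from 3597 to 3986 in WT and from 6359 to 7848 in KI.

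How many genes pass depended on single libraries and on the model. No gene passed when WT_1, WT_2, WT_3, KI_1 or KI_3 was left out, and 33 passed without KI_2. DESeq2 on the recovered reads called 172 genes higher and 213 lower, 1.25% and 1.55%, or together 2.8%, of the 13729 genes to which it gave an adjusted p, and edgeR called 1 gene, Gm4366. At an unadjusted p under 0.05 limma found 807 genes higher and 962 lower in KI, 5.3% and 6.31% of those tested. All 3 KI libraries lay above all WT libraries in 1443 genes (9.47%) and below them in 1551 (10.2%), so that the groups did not overlap in 19.6% of genes. These shares are the background against which the gene groups below are counted, and the median log2 fold change over all genes was 0.00. The lists and their members were chosen with earlier results of these data known. A list share above this background is therefore descriptive and not independent support.

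**Figure D2:**
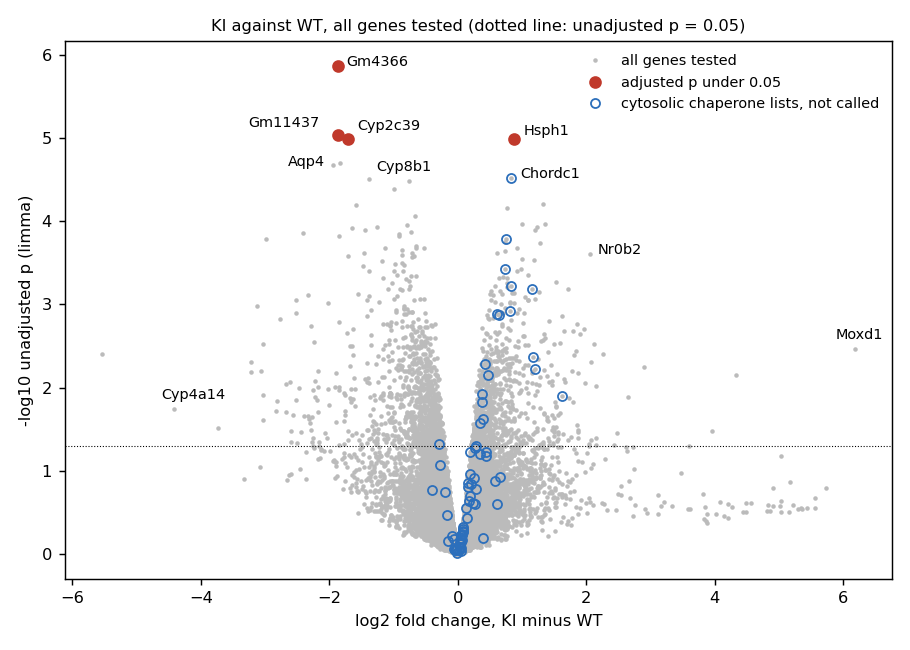
Log2 fold change of KI minus WT against -log10 of the unadjusted limma p for 15238 genes, with the 4 called genes as filled red circles and uncalled members of the 4 lists of cytosolic chaperones as open blue circles. Hsph1, at 0.88, is the only called gene on the right, and Chordc1, at 0.83, lies next to it.

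Chaperones bind unfolded proteins and help them fold. HSP70 and HSP110 proteins hold a client, J-domain proteins (HSP40) deliver it and start the ATP cycle, HSP90 with its cochaperones completes many kinases and receptors, and small heat shock proteins keep clients from aggregating. In the heat shock response the factor HSF1 drives such genes through repeats of the letters GAA and TTC in their promoters. The promoters of the chaperone genes nearest the threshold were therefore read from the RefSeq promoter table of GRCm38.p6, as the 250 bases before the first start that RefSeq gives. The motif searched was GAANNTTC or TTCNNGAA, each of which is its own reverse complement, and it occurs in 12.8% of the 32851 windows of that table. Windows are shown for the 3 chaperone genes with the smallest p in the comparison, Hsph1, Chordc1 and Dnajb1, and for the mitochondrial cochaperone gene Hspe1, whose window holds the longer form TTCNNGAANNTTC or its complement GAANNTTCNNGAA, found in 0.466% of windows. RefSeq's starts differ from GENCODE's gene bounds, and GENCODE exons cover 40 of the 250 bases in the window of Hsph1, 142 in that of Chordc1 and 47 in that of Dnajb1. They cover all 250 in the window of Hspe1, which shares its promoter region with the divergent gene Hspd1. The stretches printed are therefore those outside exons, and at most 30 bases around a match that lies in an exon. Capitals mark matches to the 8-letter motif. The stretches lie at chr5:149636377-149636586 (Hsph1) and chr5:149636351-149636380 (Hsph1 match) on the reverse strand, and at chr9:18292017-18292124 (Chordc1), chr8:83607972-83608174 (Dnajb1) and chr1:55088053-55088082 (Hspe1 matches) on the forward strand.
Hsph1: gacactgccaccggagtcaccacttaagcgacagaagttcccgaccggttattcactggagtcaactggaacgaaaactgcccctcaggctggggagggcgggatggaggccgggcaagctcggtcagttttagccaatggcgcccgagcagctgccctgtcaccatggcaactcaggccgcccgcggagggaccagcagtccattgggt
Hsph1 match: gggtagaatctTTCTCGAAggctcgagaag
Chordc1: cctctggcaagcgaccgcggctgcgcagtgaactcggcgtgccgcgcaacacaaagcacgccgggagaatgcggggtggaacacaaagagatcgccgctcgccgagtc
Dnajb1: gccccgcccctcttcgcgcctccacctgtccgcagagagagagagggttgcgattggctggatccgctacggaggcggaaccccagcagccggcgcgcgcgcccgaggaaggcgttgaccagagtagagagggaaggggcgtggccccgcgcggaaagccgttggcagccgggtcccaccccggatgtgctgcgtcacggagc
Hspe1 matches: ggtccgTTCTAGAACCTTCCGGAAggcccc

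The Hsph1 window has 1 match, starting 33 bases before RefSeq's start, inside the gene as GENCODE annotates it. The Hspe1 window has 3 overlapping matches, the nearest of which starts 79 bases before the start, and they form 2 copies of the longer element, starting 89 and 84 bases before it. The whole windows of Chordc1 and Dnajb1 have none, which says only that these letters are not in this stretch. The motif occurs in 3 of 9 HSP70 and HSP110 genes with a window in the table, in 4 of 16 HSP90 and cochaperone genes, in 4 of 18 J-domain genes, in 3 of 14 genes of small heat shock proteins, BAG proteins and heat shock factors, in 2 of 7 mitochondrial chaperone genes, in 2 of 12 chaperonin and prefoldin genes and in 1 of 22 genes of the endoplasmic reticulum list. Over all 27025 genes of the table the share is 14.6%.

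In the list of HSP70 and HSP110 genes, 4 of 11 tested members had an unadjusted p under 0.05 with higher values in KI and 0 with lower values. In 5 members all KI libraries lay above all WT libraries and in 0 below, 10 of 11 log2 fold changes were positive, and the median was 0.39 (0.51 without the 3 libraries, and 0.17 for KO minus WT). DESeq2 called 4 members higher. Only Hsph1 passed with limma.

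Hspa8, the constitutive cytosolic HSP70, was at 45820, 41717 and 41617 in WT and at 73383, 66839 and 74040 in KI, with a log2 fold change of 0.73 ± 0.14 that did not pass (limma adjusted p = 0.103). The lowest KI library lay far above the highest WT library, and the KO mean of 21857 lay below both. KI minus KO was 1.71 (limma adjusted p = 0.000202). Gm15459, a pseudogene picked with its level already known, shares 86.8% of its 50-base words with Hspa8, so its level of 21188 ± 1252 in WT and 36121 ± 2043 in KI may hold Hspa8 reads.

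The inducible HSP70 genes Hspa1a and Hspa1b, near copies of each other with uncertain read assignment, had low counts. Hspa1b was at 95.9, 114 and 143 in WT and at 146, 339 and 369 in KI (log2 fold change 1.18 ± 0.32, limma adjusted p = 0.213). Hspa1a was at 79.6, 44.3 and 112 in WT and at 116, 214 and 197 in KI (1.2 ± 0.35, adjusted p = 0.223; 1.83 without the 3 libraries). In both genes KI_1 lay just above the highest WT library, and the other KI libraries were clearly higher. Hspa4l, a relative of Hsph1, had KI_1 at 3068 while KI_2 and KI_3, at 1815 and 1722, were close to the WT maximum of 1705.

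Among 19 HSP90 and cochaperone genes, 8 had an unadjusted p under 0.05 with higher values in KI and 0 with lower values. All KI libraries lay above all WT libraries in 10 and below in 0, and the median log2 fold change was 0.28 (0.32 without the 3 libraries, -0.15 for KO minus WT). None passed with limma, and DESeq2 called 3 higher.

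Chordc1 encodes an HSP90 cochaperone with CHORD domains, and it was the chaperone gene next to Hsph1 by p. It was at 1985, 1996 and 2303 in WT and at 4099, 3236 and 3846 in KI, with no overlap (log2 fold change 0.83 ± 0.12, limma adjusted p = 0.0557; 0.70 without the 3 libraries). Its KO mean was 2001, within the WT range, and KI minus KO was 0.89 (limma adjusted p = 0.00237). Hsp90aa1, the inducible cytosolic HSP90, was at 19744, 18920 and 23624 in WT and at 46500, 30341 and 33261 in KI (0.80 ± 0.18, adjusted p = 0.146). The constitutive Hsp90ab1 lay closer, with means of 48661 ± 5025 and 66822 ± 13349 (0.44 ± 0.22, adjusted p = 0.468). Stip1, which joins HSP70 to HSP90, was at 4765 ± 324 in WT and 7489 ± 1067 in KI (0.64 ± 0.15, adjusted p = 0.148). Ahsa1, which stimulates the HSP90 ATPase, was at 4555 ± 208 and 6344 ± 1056 (0.47 ± 0.14, adjusted p = 0.231). In each of these genes, all KI libraries lay above all WT libraries.

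The 21 tested J-domain genes were mixed. In 3 of them an unadjusted p under 0.05 went with higher values in KI and in 1, Dnajc19, with lower values, and the median was 0.07 (0.14 without the 3 libraries). Dnajb1, the main J-domain partner of cytosolic HSP70, was at 1162, 992 and 979 in WT and at 1651, 1648 and 1942 in KI (log2 fold change 0.74 ± 0.13, limma adjusted p = 0.086). Its KO mean of 969 was near the lowest WT library, and KI minus KO was 0.85 (limma adjusted p = 0.00434). Dnaja4 was at 294, 345 and 330 in WT and at 1043, 598 and 586 in KI (1.15 ± 0.24, adjusted p = 0.124). Dnajb4 was at 1680 ± 43.4 in WT and 2258 ± 237 in KI (0.42 ± 0.12, adjusted p = 0.216).

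Small heat shock proteins, BAG cochaperones and heat shock factors formed a list of 18 tested genes, of which 3 had an unadjusted p under 0.05 with higher values in KI and 0 with lower values (median 0.17). Bag3, which links HSP70 to small heat shock proteins and autophagy, was at 760, 792 and 586 in WT and at 1130, 1154 and 1504 in KI (log2 fold change 0.82 ± 0.17, limma adjusted p = 0.123). Its partner Hspb8 was at 9300 ± 1342 and 14086 ± 1446 (0.60 ± 0.14, adjusted p = 0.147). Hspb1 was at 190, 195 and 269 in WT and at 1971, 321 and 469 in KI, so that its log2 fold change of 1.63 ± 0.54 rests mostly on KI_1, and it was 0.73 without the 3 libraries. Transcripts of the factor itself, Hsf1, were at 635 ± 89.2 in WT and 724 ± 78.3 in KI and overlapped (adjusted p = 0.639).

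Of 10 mitochondrial chaperone genes, 1 had an unadjusted p under 0.05 in each direction, 3 had a positive log2 fold change, and the median was -0.03 (-0.01 without the 3 libraries). Hspe1, whose promoter is shown above, was at 6349, 6626 and 8379 in WT and at 11651, 8584 and 9690 in KI (0.49 ± 0.14, adjusted p = 0.227), and its partner Hspd1 overlapped between groups (0.26 ± 0.15). Among 15 genes of the chaperonin TRiC and of prefoldin, cytosolic complexes which fold actin and tubulin, 3 had an unadjusted p under 0.05 with higher values in KI and 1 with lower values. All KI libraries lay above all WT libraries in 6 of them and below in 2, and the median was 0.15 (0.22 without the 3 libraries). Cct3, a chaperonin subunit, was at 5047 ± 167 in WT and 6895 ± 721 in KI (0.45 ± 0.12, adjusted p = 0.203). In the endoplasmic reticulum list of 25, the count was 1 in each direction, with 21 positive log2 fold changes and a median of 0.21 (0.35 without the 3 libraries). All KI libraries lay above all WT libraries in only 2 of these genes and below in 1. Averaged over the list, the log2 deviation from the WT mean was -0.08, -0.18 and 0.26 in WT_1, WT_2 and WT_3. It was 0.01, 0.25 and 0.39 in KI_1, KI_2 and KI_3, so the groups overlapped. Xbp1, a transcription factor of the unfolded protein response, was at 9880, 10084 and 16438 in WT and at 28681, 19935 and 17212 in KI (0.86 ± 0.24, adjusted p = 0.213). Trib3, a target of the ATF4 branch, was at 262, 224 and 125 in WT and at 22.5, 123 and 88.6 in KI (-1.61 ± 0.56, adjusted p = 0.301; -0.97 without the 3 libraries).

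**Figure D3:**
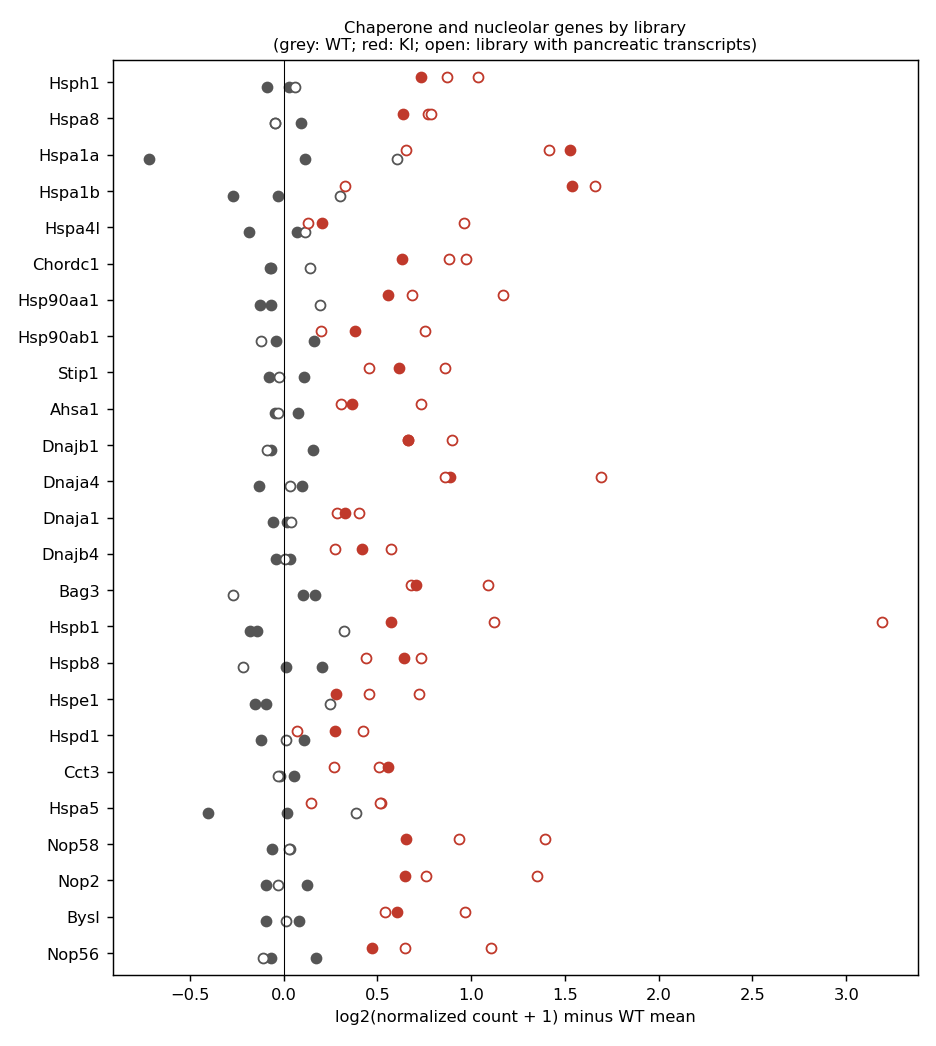
Log2(normalized count + 1) of chaperone and nucleolar genes in each library, relative to the WT mean of the gene, with WT in grey, KI in red and open circles for the 3 libraries with pancreatic transcripts. The KI libraries of Hsph1, Hspa8, Chordc1 and Dnajb1 lie to the right of all WT libraries, KI_2 (filled red) included, and KI_1 stands apart in Hspb1 at 1971 normalized counts.

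Genes of ribosome biogenesis, which process and assemble ribosomal RNA in the nucleolus, had the highest share of members at low p among the lists of protein synthesis. Of 36 tested, 16 had an unadjusted p under 0.05 with higher values in KI and 1 with lower values, 30 log2 fold changes were positive, and the median was 0.32 (0.21 without the 3 libraries, 0.11 for KO minus WT). None passed with limma, and DESeq2 called 7 higher. Nop58, a core protein of box C/D small nucleolar ribonucleoproteins, was at 707, 754 and 753 in WT and at 1936, 1161 and 1411 in KI (log2 fold change 0.99 ± 0.18, limma adjusted p = 0.0913). Nop2, a ribosomal RNA methyltransferase, was at 780, 908 and 814 in WT and at 2121, 1303 and 1407 in KI (0.92 ± 0.18, adjusted p = 0.104). Bysl, needed for the small subunit, was at 650 ± 39.3 and 1068 ± 177 (0.70 ± 0.14, adjusted p = 0.11). KI_1 was the highest library in all 3 genes. Of 34 ribosomal protein genes, 0 had an unadjusted p under 0.05 with higher values in KI and 1 with lower values, and the median was -0.01 (-0.16 without the 3 libraries).

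A list of 12 genes held Myc and targets of it, among them polyamine enzymes. Of these, 4 had an unadjusted p under 0.05 with higher values in KI and 0 with lower values, and the same counts held for groups that did not overlap. The median was 0.04 (0.14 without the 3 libraries). Srm, spermidine synthase, was at 1597, 1497 and 1737 in WT and at 1985, 2471 and 2489 in KI (log2 fold change 0.52 ± 0.14, limma adjusted p = 0.206). Odc1, ornithine decarboxylase, was at 4374 ± 213 in WT and 5795 ± 217 in KI (0.41 ± 0.12, adjusted p = 0.217), and its KO mean of 2764 lay below both. Myc was at 201, 187 and 827 in WT and at 207, 115 and 165 in KI.

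Sm proteins, the spliceosome and the methylarginine machinery bear on the known binding partners of a Tudor domain. Of 29 spliceosome genes, 4 had an unadjusted p under 0.05 with higher values in KI and 1 with lower values, and the median was 0.13 (0.20 without the 3 libraries). All KI libraries lay above all WT libraries in 9 of them and below in 1. Snrpb, which encodes the methylated Sm proteins B and B', was at 2114, 2177 and 2252 in WT and at 2480, 2972 and 2556 in KI (log2 fold change 0.29 ± 0.11, limma adjusted p = 0.376; 0.47 without the 3 libraries). Srsf5, a splicing factor, was at 7190, 6114 and 6957 in WT and at 3244, 4977 and 4751 in KI (-0.66 ± 0.16, adjusted p = 0.176; -0.41 without the 3 libraries). A list of 24 genes of arginine methylation, small RNA silencing and stress granules gave 4 and 1, with a median of 0.05. Within it, Wdr77, the partner of the methyltransferase PRMT5, was at 598, 596 and 610 in WT and at 814, 829 and 715 in KI (0.38 ± 0.13, adjusted p = 0.266). The stress granule gene G3bp1 was at 2609 ± 135 and 3267 ± 96.3 (0.33 ± 0.10, adjusted p = 0.244).

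Cytochrome P450 genes of the 2C family, which oxidise drugs, fatty acids and retinoids, had negative log2 fold changes in 12 of 13 tested members. Of these genes, 4 had an unadjusted p under 0.05 with lower values in KI and 1 with higher values, and the median log2 fold change was -0.51. The shift was smaller without the 3 libraries, at -0.12, and the median for KO minus WT was -2.23. Beside Cyp2c39, Cyp2c38 was at 2454, 2513 and 1921 in WT and at 585, 854 and 515 in KI, with no overlap (-1.84 ± 0.25, limma adjusted p = 0.0532; -1.54 without the 3 libraries). KI exceeded KO in Cyp2c38 by 1.31 (limma adjusted p = 0.0123). Cyp2c37 was at 2769, 3421 and 3643 in WT and at 1127, 2190 and 1573 in KI (-1.05 ± 0.34, adjusted p = 0.263; -0.49 without the 3 libraries), with a KO mean of 236. The member on the other side was Cyp2c70, which makes muricholic acids in rodents. It was at 33470, 37704 and 42743 in WT and at 85763, 63846 and 48864 in KI (0.77 ± 0.22, adjusted p = 0.217). Reads may be shared among members of this family.

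In the list of other phase I drug-metabolizing enzymes and their regulators 6 of 33 had an unadjusted p under 0.05 with lower values in KI and 0 with higher values, and the median was -0.26. For phase II enzymes, which conjugate drugs, the counts were 2 of 31 lower, where 6.31% of all genes were, and 0 higher. All KI libraries lay above all WT libraries in 4 of them and below in 5, and the median was -0.16 (-0.10 without the 3 libraries). Nr1i3, which encodes the xenobiotic receptor CAR, was at 7841, 6128 and 5005 in WT and at 3206, 4246 and 5158 in KI, where KI_3 overlapped WT (-0.59 ± 0.20, adjusted p = 0.269). Cyp3a44 was at 73.8, 417 and 300 in WT and at 22.5, 42.0 and 28.0 in KI (-2.78 ± 0.64, adjusted p = 0.158). Cyp3a16 and Cyp3a41a were near the KI level in WT_1 as well, at 18.2 and 19.2, but at 1056 and 710 in WT_2. These Cyp3a genes are female-biased in mouse liver. Of 20 tested female-biased genes 6 had lower values at an unadjusted p under 0.05 and 0 higher. Their median was -0.48 (-0.26 without the 3 libraries, -1.11 for KO minus WT). The 25 male-biased genes gave 3 higher and 1 lower, with a median of 0.16 (-0.78 for KO minus WT). Lists can share genes, and Cyp2c39 is in both the female-biased and the 2C list, so their counts are not independent.

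Growth hormone sets these sex biases in liver through the kinase JAK2 and the factor STAT5B. Of 18 tested genes of growth hormone and IGF signalling, 4 had an unadjusted p under 0.05 with higher values in KI and 3 with lower values, 10 log2 fold changes were positive, and the median was 0.07 (0.34 without the 3 libraries). Stat5b was at 2323, 2612 and 2261 in WT and at 1676, 1928 and 1700 in KI (log2 fold change -0.44 ± 0.11, limma adjusted p = 0.185), and Stat5a at 544 ± 11.1 and 394 ± 23.3 (-0.47 ± 0.16, adjusted p = 0.275). KI libraries lay below all WT libraries in both genes. Socs2, a target and inhibitor of the pathway, was at 90.2, 295 and 547 in WT and at 1372, 665 and 590 in KI (1.73 ± 0.58, adjusted p = 0.275). Onecut1, which is also induced by growth hormone, was at 140, 729 and 912 in WT and at 1775, 1190 and 1149 in KI (1.56 ± 0.58, adjusted p = 0.336). WT_1 was the lowest library in both Socs2 and Onecut1. Igf1, the main endocrine output, overlapped between groups at 44622 ± 1724 and 40779 ± 2843.

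The male-biased genes with the widest separation were Moxd1, which encodes a monooxygenase-like protein, and Selenbp2. Moxd1 was at 9.59, 1.93 and 22.0 in WT and at 1720, 65.8 and 2359 in KI, a log2 fold change of 6.18 ± 1.63 (limma adjusted p = 0.193). KI_2 lay far below the other KI libraries, and the log2 fold change without the 3 libraries was 3.58. Selenbp2 was at 4938, 4989 and 6149 in WT and at 19540, 9382 and 16745 in KI (1.45 ± 0.41, adjusted p = 0.217; 0.92 without the 3 libraries), and its KO mean of 1898 lay below WT.

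Bile acid synthesis turns cholesterol into bile acids, and the nuclear receptor FXR restrains it through the repressor SHP. Nr0b2, which encodes SHP, was at 609, 983 and 361 in WT and at 2407, 2902 and 2240 in KI (log2 fold change 2.06 ± 0.37, limma adjusted p = 0.0884; 1.91 without the 3 libraries). The groups did not overlap, and WT_3 was the lowest library and KI_2 the highest. Cyp8b1, the sterol 12-alpha-hydroxylase that makes cholic acid, was at 18905, 14224 and 15891 in WT and at 5546, 7605 and 5645 in KI (-1.39 ± 0.20, limma adjusted p = 0.0557; -1.11 without the 3 libraries). The KO means were 1535 for Nr0b2 and 8530 for Cyp8b1, and KI minus KO passed in neither gene (0.81 with adjusted p = 0.212, and -0.43 with adjusted p = 0.206).

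Cyp7a1, the rate-limiting enzyme of the same pathway, overlapped between groups, at 7835, 14121 and 8712 in WT and at 15366, 7538 and 9551 in KI (log2 fold change 0.07 ± 0.69, limma adjusted p = 0.982; -0.48 without the 3 libraries). It was lower in KO, with a mean of 910, and KI exceeded KO by 4.03 (limma adjusted p = 0.00812). Cyp7b1, of the alternative pathway, was at 14966, 16935 and 25806 in WT and at 41280, 31918 and 30010 in KI (0.87 ± 0.32, adjusted p = 0.34). Of the 15 synthesis genes 4 had an unadjusted p under 0.05 with lower values in KI and 1 with higher values (median -0.14), and of 19 genes of transport and FXR signalling 2 and 1 (median -0.38; -0.19 without the 3 libraries). The receptor gene Nr1h4 itself was at 4693 ± 391 and 4189 ± 270 and overlapped.

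Lipogenesis makes fatty acids from sugar under SREBP1c and ChREBP. Of 25 tested genes, 10 had an unadjusted p under 0.05 with lower values in KI and 1, Lpin1, with higher values. All KI libraries lay below all WT libraries in 12, and the median was -0.40 (-0.22 without the 3 libraries, -0.36 for KO minus WT). None passed with limma, and DESeq2 called 2 lower. Pklr, the liver pyruvate kinase and a ChREBP target, was at 8634, 6983 and 10069 in WT and at 2543, 4368 and 2154 in KI (-1.55 ± 0.33, adjusted p = 0.128; -0.83 without the 3 libraries). Scd1, a fatty acid desaturase, was at 197326, 185100 and 143863 in WT and at 44831, 91132 and 27634 in KI (-1.85 ± 0.43, adjusted p = 0.162; -1.07 without the 3 libraries). Fasn, fatty acid synthase, was at 12419, 12362 and 12426 in WT and at 3781, 9318 and 5909 in KI (-1.07 ± 0.40, adjusted p = 0.346; -0.41 without the 3 libraries). In these 3 genes KI_2 was the KI library nearest to WT.

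In cholesterol synthesis 25 of 27 log2 fold changes were negative and the median was -0.40, but without the 3 libraries it was 0.12. Hmgcs1, an early enzyme of the pathway, had KI_1 far below WT and KI_2 within the WT range: it was at 12021, 9659 and 12086 in WT and at 3887, 12044 and 7962 in KI (-0.64, and 0.16 without the 3 libraries). Glucose and glycogen genes had a median of -0.27, and of 0.08 without the 3 libraries. Of 22 members, 7 had lower values at an unadjusted p under 0.05 and 1 higher. Slc2a2, the hepatocyte glucose transporter, was at 26831, 28601 and 27269 in WT and at 12352, 19916 and 10900 in KI (-0.99 ± 0.30, adjusted p = 0.24; -0.48 without the 3 libraries). Pfkfb3, which makes the glycolytic activator fructose 2,6-bisphosphate, was at 974, 1837 and 1273 in WT and at 5145, 4403 and 3085 in KI (1.65 ± 0.40, adjusted p = 0.174).

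The receptor PPARalpha drives fatty acid oxidation. Its gene Ppara was at 8235, 7690 and 5933 in WT and at 3586, 5310 and 4159 in KI (log2 fold change -0.75 ± 0.20, limma adjusted p = 0.193). Of the 34 genes in its list 6 had an unadjusted p under 0.05 with lower values in KI and 0 with higher values, and all KI libraries lay below all WT libraries in 10. The median was -0.16 with 29 of 34 log2 fold changes negative, and -0.08 with 20 negative without the 3 libraries. The targets Cyp4a10 and Cyp4a14, omega-hydroxylases of fatty acids, had the widest differences. Cyp4a10 was at 2591, 3316 and 2217 in WT and at 154, 1288 and 1017 in KI (-2.19 ± 0.64, adjusted p = 0.223). Cyp4a14 was at 576, 732 and 535 in WT and at 0, 219 and 103 in KI. KI_1 was the lowest library in both, and without the 3 libraries the log2 fold changes were -1.19 and -1.56.

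**Figure D4:**
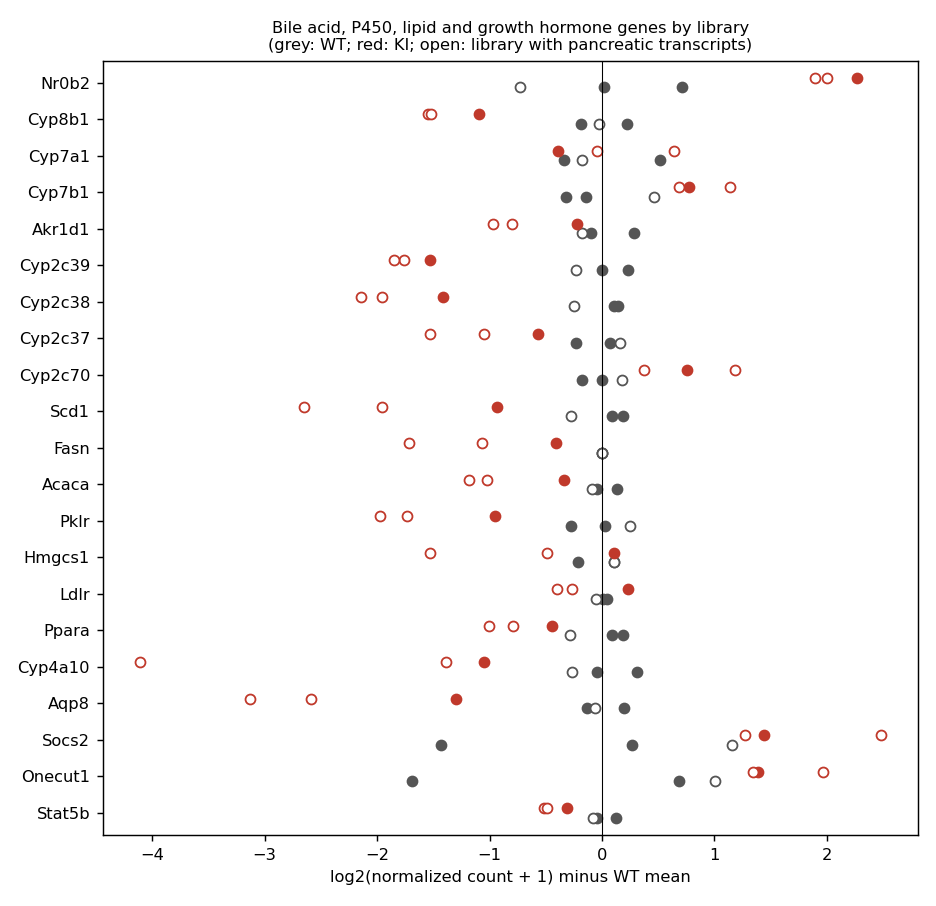
Log2(normalized count + 1) of bile acid, P450, lipid, glucose and growth hormone genes in each library, relative to the WT mean of the gene, with WT in grey, KI in red and open circles for the 3 libraries with pancreatic transcripts. Nr0b2 lies to the right and Cyp8b1, Cyp2c39 and Cyp2c38 to the left in every KI library, while KI_2 (filled red) lies nearer to WT than KI_1 and KI_3 in Scd1, Fasn and Hmgcs1.

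Several single genes outside these pathways were also near the threshold. Atr, a kinase of the DNA damage checkpoint, had little spread within each group, at 996, 1051 and 1023 in WT and at 593, 600 and 627 in KI (log2 fold change -0.75 ± 0.11, limma adjusted p = 0.0557; -0.77 without the 3 libraries). Its KO mean was 640, and KI and KO were not distinguished (-0.07, adjusted p = 0.719). Atm, a related kinase, was at 746, 1124 and 714 in WT and at 531, 569 and 485 in KI (-0.68 ± 0.17, adjusted p = 0.19). In the list of 20 DNA damage and p53 genes, 3 had an unadjusted p under 0.05 with lower values in KI and 0 with higher values, and DESeq2 called 2 lower. Of its log2 fold changes 12 were positive, with a median of 0.16, against 9 and a median of -0.09 without the 3 libraries.

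Hjv encodes hemojuvelin, the BMP coreceptor that induces the iron hormone hepcidin. It was at 2216, 2068 and 1858 in WT and at 991, 1236 and 863 in KI (log2 fold change -1.0 ± 0.15, limma adjusted p = 0.0622). KO did not share this, with a mean of 2473, and KI minus KO was -1.27 (limma adjusted p = 0.00129). The mean of the hepcidin gene Hamp, which was picked with its level already known, was 49916 ± 8325 in WT and 51727 ± 8631 in KI.

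Aqp4 and Aqp8, which encode water channels, were also named by p or by size of change. Aqp4 was at 594, 648 and 809 in WT and at 114, 219 and 217 in KI (log2 fold change -1.94 ± 0.26, limma adjusted p = 0.0532). Aqp8 was at 1984, 2492 and 2078 in WT and at 248, 884 and 360 in KI (-2.34 ± 0.49, adjusted p = 0.128; -1.33 without the 3 libraries). Acnat2, a peroxisomal acyltransferase that conjugates fatty acids to amino acids and shares 30.0% of its 50-base words with Acnat1, was at 2070, 2780 and 1525 in WT and at 444, 497 and 265 in KI (-2.41 ± 0.41, adjusted p = 0.085). Its KO mean of 6924 was above WT, and KI minus KO was -3.99 (limma adjusted p = 0.000752).

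On the other side, Atp11a, a phospholipid flippase, was at 586, 625 and 461 in WT and at 1550, 1523 and 1113 in KI (log2 fold change 1.32 ± 0.20, limma adjusted p = 0.0817). Slc41a2, a magnesium transporter, was at 631, 790 and 673 in WT and at 1848, 1790 and 1724 in KI (1.36 ± 0.22, adjusted p = 0.085). Both had higher KO means still, at 5418 and 6486, and KI lay below KO by tests of that difference (-1.94, limma adjusted p = 0.00078, and -1.79, limma adjusted p = 0.00187). Etfbkmt, a mitochondrial methyltransferase of the electron transfer flavoprotein, was at 3108, 3513 and 3571 in WT and at 8319, 6436 and 5834 in KI (1.0 ± 0.16, adjusted p = 0.085).

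The remaining genes named by p or by size of change were Creld1, Capn8, Dcbld2, Nrp1, Serpina4-ps1, Kcnk1, Dkk4, Cyp26b1 and Mup-ps23 on the higher side, with log2 fold changes from 0.74 for Creld1 to 4.32 for Kcnk1. On the lower side they were Eva1a, Timd2, Rnf152 and Gadd45g, from -0.66 for Eva1a to -2.28 for Gadd45g. Cyp26b1, which degrades retinoic acid, was at 872, 598 and 410 in WT and at 3468, 1784 and 1713 in KI, and Gadd45g, a stress sensor, at 524, 525 and 874 in WT and at 208, 140 and 70.6 in KI. Kcnk1, a potassium channel, was at 17.3, 0 and 42.1 in WT and at 283, 53 and 410 in KI, and KI_2 was again the lowest KI library.

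KI and KO were compared directly for the 35 genes named by these rules, Snd1 included, since both differences from WT use the same WT libraries. The list members Hspa8, Cyp7a1 and Saa1, for which this contrast is also given, are not among the 35. Over all genes this contrast called 8.45% of those tested. All of the 35 but Snd1 were chosen for their values in the same KI libraries, and Snd1 is the gene removed in KO, so their share cannot be read against it. The p-values of this contrast for single genes carry the same limit. Among the 35, 16 differed between KI and KO by limma, 10 of them higher in KI and 6 lower, and 19 were not called. Snd1, Hsph1, Chordc1 and Dnajb1 were among those higher in KI, and Hjv, Acnat2, Gm11437, Atp11a and Slc41a2 among those lower. With the mean log2 level of the pancreas markers as a covariate, 10 of the 35 were called. Without WT_3, KI_1 and KI_3 a single KI library is left, so no count is given here.

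The acute phase response, secreted proteins made in inflammation, had a median near 0 in KI. Of 28 tested genes 2 had an unadjusted p under 0.05 with higher values and 1 with lower values. The median was 0.03 in KI (0.08 without the 3 libraries) and 2.82 in KO minus WT. Single log2 fold changes in KI ran from -0.66 to 2.63, and DESeq2 called 2 members higher and 0 lower. Saa1 was at 1841, 1867 and 1366 in WT and at 4378, 2921 and 5970 in KI (log2 fold change 1.34 ± 0.33, limma adjusted p = 0.178; 0.66 without the 3 libraries), against a KO mean of 713292. KI minus KO for this gene was -7.30 (limma adjusted p = 4.89e-06). Saa1 and Saa2 are near copies, and their reads may be shared.

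**Figure D5:**
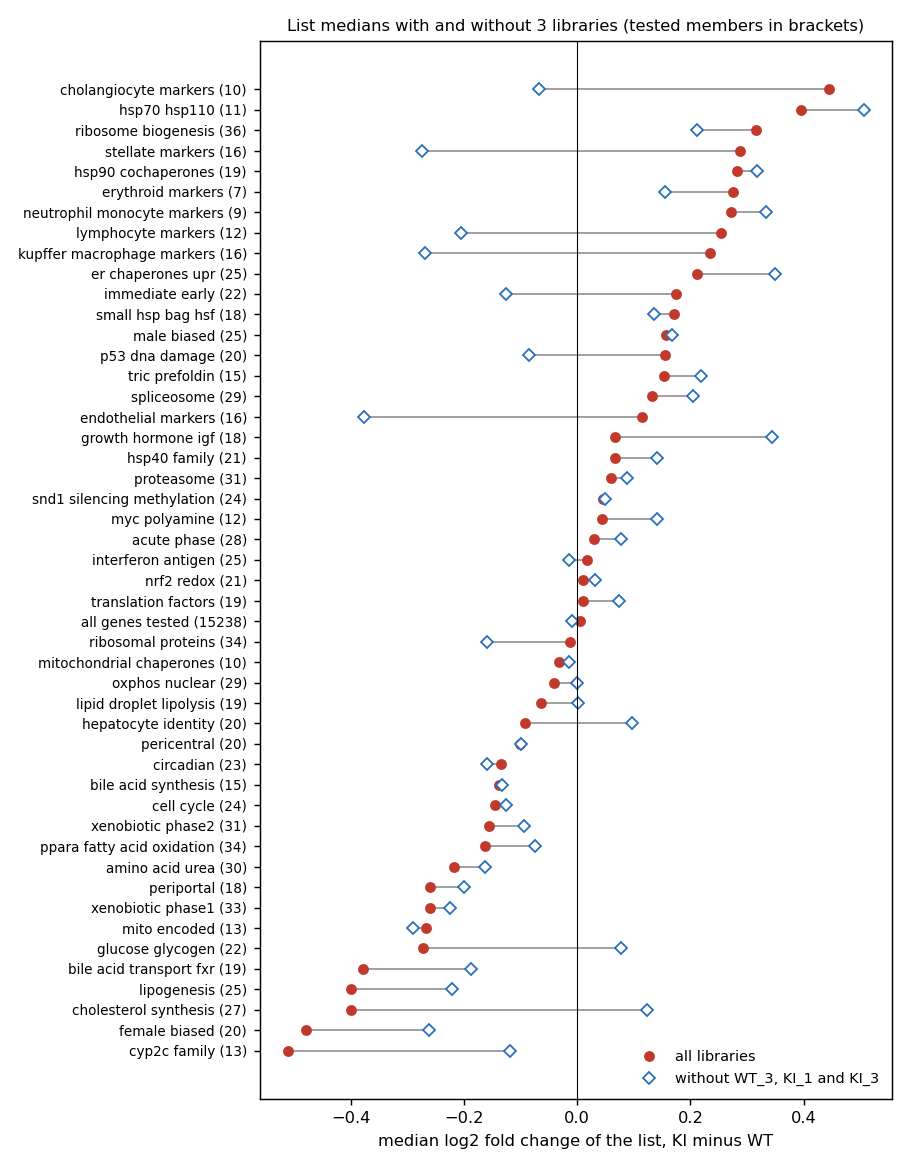
Median log2 fold change of KI minus WT in each gene list with at least 5 tested members (number in brackets), with all libraries (filled circles) and without WT_3, KI_1 and KI_3 (open diamonds), exocrine pancreas markers left out. The HSP70 and HSP110 list stands at 0.39 and 0.51, while the cholesterol synthesis list moves from -0.40 to 0.12.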

How the data were processed

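The 3 WT and 3 KI liver libraries were compared, with the 3 KO libraries in the same fit. The authors deposited 1 table of normalized counts, a signal of gene reads divided by a size factor per library. TopHat2 and Bowtie2 were used with GRCm38, and featureCounts for the counts, per the submitters' processing notes, while versions, annotation, strand setting and scaling tool are not given in the sources used here. Reads of overlapping or antisense genes can therefore not be told apart. The deposited values are multiples of 1 step per library, and undoing the division gave whole reads for at least 99.995% of values (tolerance 0.0051). Symbols are those of the table, and 554 genes without a symbol were kept in the fit.

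Genes with a mean of at least 10 over the 9 libraries were fitted as log2(value + 1) with limma 3.58.1 in R 4.3.3, with a trend of variance on abundance, 1 mean per group, two-sided tests and Benjamini-Hochberg adjustment. Alternatives were other pseudocounts, filters and scalings, edgeR 4.0.16, DESeq2 1.42.0, array weights, a pancreas covariate, a replicate block and leaving out libraries. The procedure was tested on simulated counts with the same dispersion in every gene. No simulated library held extra pancreatic transcripts, so that test does not cover this feature of the data. Named genes are those called, the 12 with the smallest p and the 8 with the largest change in each direction (mean of at least 50, predicted genes counted but not named unless called), and up to 6 members per list by p plus members that cover its roles. The members and the 50 gene lists were chosen with earlier results of these data known. Shared 50-base words were counted between GENCODE transcripts.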

Additional observations from a re-analysis of the deposited data

How the results depend on the processing

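The number of genes called in KI against WT was 4, and 4 again with a pseudocount of 0.5 or 5, with TMM scaling and with size factors computed without pancreas markers. It was 28 in a fit on the 6 WT and KI libraries alone (0.184% of genes tested), 8 without a filter on low values, 7 at a mean of at least 50, 151 with array weights, 1 with edgeR and 385 with DESeq2 (2.8% of the genes it gave an adjusted p). It was 0 with the pancreas covariate, where limma still gave 1328 genes an unadjusted p under 0.05, and 0 without WT_3, KI_1 and KI_3, where it gave 634 and where 1 KI library is assumed to vary like the other groups. The same 4 genes were called in all of these settings with at least 4 calls. Leaving out 1 library gave 0 to 33 genes, 33 only without KI_2 and 0 without any other, where limma gave 1121 to 1614 genes an unadjusted p under 0.05. Of the 35 named genes, Snd1 included, the 16 called in KI against KO became 11 to 17 with 1 library left out, 10 with the pancreas covariate and 0 without the 3 libraries. The log2 fold change of Snd1 turned to 0.0516 without the 3 libraries (adjusted p = 1). The causes of these changes were not tested.

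For the replicate block, deviations of same-numbered WT and KI libraries correlated at -0.136, 0.531 and 0.568, so the numbers were not taken as pairs, and WT_1 was closest to KI_2. The fit with the block called 3 genes, 0 higher and 3 lower, of which 2 were among the 4, and 15 of the 35 genes in KI against KO, and it gave Snd1 -0.23.

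Over 19 alternatives, 34 named genes other than Snd1 gave 646 values. Of these, 540 kept their direction and side of the threshold, 33 no longer passed, 73 newly passed, and 0 changed direction, and 25 genes not called passed under some alternative. In all 34 genes the KI and WT libraries did not overlap, so leaving out libraries could not turn their direction. For those settings the 0 was fixed in advance. Medians of 49 lists moved by more than 1 SD in 57 of 931 values. That SD is the spread, across the KI libraries, of the list's median deviation from the WT mean. A list whose KI libraries differ more therefore needs a larger move to be counted.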

Other observations

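Among lists not described so far, all 13 tested genes encoded by mitochondrial DNA had negative log2 fold changes in KI against WT, with a median of -0.27 and of -0.29 without WT_3, KI_1 and KI_3, and 2 of them had an unadjusted p under 0.05, while none passed with limma. In 1 of the 13 all KI libraries lay below all WT libraries, where 10.2% of all genes did, and without the 3 libraries 12 were negative. Averaged over these genes, the log2 deviation from the WT mean was -0.52, -0.16 and -0.24 in KI_1, KI_2 and KI_3. It was 0.15, 0.00 and -0.16 in WT_1, WT_2 and WT_3, so KI_2 and KI_3 were close to the lowest WT library. KO minus WT, which uses the same WT libraries, had a median of -0.26.

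Among clock genes, Rora, an activator of the clock, was at 5580, 5229 and 4579 in WT and at 2573, 3908 and 3006 in KI (log2 fold change -0.71 ± 0.17, limma adjusted p = 0.164; -0.47 without the 3 libraries). Per2, a repressor, was at 1353, 1482 and 1501 in WT and at 2281, 1909 and 2204 in KI (0.56 ± 0.25, limma adjusted p = 0.422). Of 23 clock genes 3 had an unadjusted p under 0.05 with lower values and 1 with higher values. All KI libraries lay below all WT libraries in 8 of them and above in 1, and the median was -0.13 (-0.16 without the 3 libraries). Averaged over these genes, WT_3 lay at -0.24 from the WT mean, below KI_1, KI_2 and KI_3 at -0.23, -0.06 and -0.11. The liver factor gene Foxa3 was at 2458, 2493 and 2385 in WT and at 3702, 3542 and 3718 in KI (0.58 ± 0.14, limma adjusted p = 0.174). Vldlr, a lipoprotein receptor, was at 356, 714 and 314 in WT and at 140, 182 and 189 in KI (-1.35 ± 0.30, limma adjusted p = 0.146), and Abhd5, the coactivator of adipose triglyceride lipase, was at 1679, 1767 and 1898 in WT and at 4923, 3206 and 2606 in KI (0.96 ± 0.27, limma adjusted p = 0.213). Bhmt, which remethylates homocysteine, was at 139435, 168076 and 105461 in WT and at 67931, 92515 and 60760 in KI (-0.90 ± 0.27, limma adjusted p = 0.233).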
